A study of Rattus norvegicus with 24 samples.

Results

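The myocardium of rats that had lived with mitral regurgitation (MR) for 40 weeks was compared with that of rats at 10 weeks of MR. The comparison uses 10 of the 24 libraries of the series and takes its members from the labels: 5 libraries labelled MR at 40 weeks and 5 labelled MR at 10 weeks. In both groups the mitral leaflet of Sprague-Dawley rats had been perforated through a left thoracotomy, RNA was taken from snap-frozen myocardium, and no rat is labelled with any drug or genetic change. The other 14 libraries are 5 from MR at 20 weeks, 4 from MR at 2 weeks and 5 from Sham rats at 2 weeks, whose leaflet was left whole. They are used here only to place the levels of the genes. Since every Sham library is from 2 weeks, duration of MR, ageing and handling cannot be told apart between 40 and 10 weeks. Batch, sex and chamber are not in the labels. Nor is it stated whether libraries come from different animals, so p-values measure the spread between these libraries, which may be technical.

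Blood that leaks back through the mitral valve adds to the volume the left ventricle must fill with and eject. The ventricle responds by dilating and by growing its muscle cells in length, a form of remodelling known as eccentric hypertrophy, and in time contraction can fail. Muscle cells of the heart draw most of their energy from mitochondrial oxidation of fatty acids, and their beat depends on calcium released from and returned to the sarcoplasmic reticulum. Genes of these systems, of the stress response and of the other cells of the heart wall were followed here.

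Of 10404 genes listed at 10 weeks and 10439 listed at 40 weeks, 10200 are in both tables and 9974 were tested. MR libraries at 40 weeks held 9.71 ± 1.07 M reads on listed genes (M, 1e+06), and those at 10 weeks 10.5 ± 1.34 M (SD, n = 5 each). At a Benjamini-Hochberg adjusted p under 0.05 in limma, 5661 genes passed (56.8%): 2900 rose at 40 weeks (29.1%) and 2761 fell (27.7%). A change of at least 2-fold was found for 913 genes that rose (9.15%) and 404 that fell (4.05%). The libraries at 40 and 10 weeks come from 2 tables that were scaled separately, and the counts of rises and falls depend on how libraries are scaled. On the deposited scale the median gene stood at −0.25 (log2) at 40 weeks, against −0.01 after every library was rescaled to the median of its gene ratios, and there 1842 genes rose and 4227 fell (18.5% and 42.4%). Changes below are on the rescaled values, with the deposited scale beside each list. On the first principal component of the 10 libraries (69.6% of the variance) libraries at 40 weeks scored 16.6 to 46.2 and those at 10 weeks −40.6 to −27.6, and the lowest of the 40-week scores was that of replicate 3. Marker genes of heart muscle cells were abundant in both groups, with summed levels of 42130 to 60070 at 40 weeks and 41300 to 60770 at 10 weeks.

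The 12 largest rises included a junction protein, channels, metabolic enzymes and a cyclin. Values are normalised read counts in replicates 1 to 5. Jph2, junctophilin 2, which holds the surface membrane against the sarcoplasmic reticulum (chromosome 3, 159712325 to 159775644, minus strand, rn6), was at 257, 348, 193, 362 and 332 at 40 weeks and at 25.9, 23.5, 17.8, 26.6 and 48.3 at 10 weeks. The lowest library at 40 weeks was well above the highest at 10 weeks, and the gene rose by a log2 fold change of 3.39 ± 0.23 SE (limma, adjusted p = 1.4e-07). Ogdh, the first enzyme of the 2-oxoglutarate dehydrogenase complex in the citric acid cycle (chromosome 14, 86414976 to 86480157, plus strand), was at 458, 650, 389, 882 and 650 at 40 weeks and at 55.7, 57.9, 57.6, 35.1 and 72 at 10 weeks. It rose by 3.40 ± 0.22 SE (limma, adjusted p = 1.17e-07), with no overlap of the groups, as the rule that chose these 12 genes requires. Hk2, hexokinase 2, which traps glucose in the cell (chromosome 4, 113560880 to 113609898, minus strand), was at 46.3, 45.4, 31.9, 58.1 and 49.3 at 40 weeks and at 3.88, 3.78, 3.12, 2.88 and 5.09 at 10 weeks, a rise of 3.31 ± 0.16 SE (limma, adjusted p = 1.32e-08).

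Among the same 12 genes, Kcnk3, the background potassium channel TASK-1, was at 80.3, 93, 50.2, 106 and 88 at 40 weeks and at 4.56, 6.26, 6.83, 5.71 and 7.41 at 10 weeks (3.54 ± 0.18 SE). Hcn4, the channel of the pacemaker current, was at 36.1, 7.99, 12.1, 38.6 and 78.4 at 40 weeks and at 2.06, 0.783, 1.5, 0.0488 and 1.23 at 10 weeks (3.74 ± 0.48 SE). Of these 12, Hcn4 varied most within each group: its highest library at 40 weeks was replicate 5 and its lowest replicate 2. Ccnd2, cyclin D2, a driver of the G1 phase, was at 47.3, 45.3, 14.8, 49.1 and 44.6 at 40 weeks and at 1.53, 1.1, 1.54, 1.46 and 2.53 at 10 weeks (3.88 ± 0.27 SE), replicate 3 standing apart at 40 weeks. The other 6 were Nipsnap2, a mitochondrial protein (3.89 ± 0.17 SE), Pkia, an inhibitor of protein kinase A (3.89 ± 0.24 SE), Cavin4, a caveolar coat protein of muscle (3.74 ± 0.16 SE), Sntb1, a syntrophin of the dystrophin complex (3.40 ± 0.22 SE), Fbxl17, an F-box protein of ubiquitin ligases (3.05 ± 0.21 SE) and Alpk3, a kinase-family protein of the sarcomere M-band (2.98 ± 0.21 SE). Adjusted p lay between 4.31e-09 for Nipsnap2 and 1.96e-05 for Hcn4 by limma. By the rule that chose these 12 genes no library at 10 weeks reached any at 40 weeks. Of all genes tested 20.7% were higher at 40 weeks without overlap.

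The 12 largest falls were smaller and included a sarcomere gene, a pair of splicing regulators and a clock gene. Clk1, a kinase that phosphorylates SR splicing factors (chromosome 9, 65296777 to 65307996, minus strand, rn6), was at 18, 20.9, 31.4, 16.9 and 18 at 40 weeks and at 95.7, 85.3, 82.8, 93.5 and 90 at 10 weeks, a change of −2.07 ± 0.14 SE (limma, adjusted p = 1.87e-07). Tcap, telethonin, which caps titin at the Z-disc (chromosome 10, 86337703 to 86338862, plus strand), was at 468, 354, 620, 393 and 321 at 40 weeks and at 2070, 1765, 1673, 1456 and 1044 at 10 weeks (−1.90 ± 0.21 SE; limma, adjusted p = 5.23e-06). Tra2a, a splicing regulator, was at 9.69, 9.97, 12.4, 11.4 and 10.4 at 40 weeks and at 47.4, 36.8, 27.5, 42.4 and 44.2 at 10 weeks (−1.77 ± 0.14 SE). In all 3 genes every library at 40 weeks was below every library at 10 weeks, by the rule that chose the 12 falls. Of all genes tested 18.4% were lower at 40 weeks without overlap.

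Iqub, an IQ-motif and ubiquitin-domain protein, differed by −2.09 ± 0.21 SE. B4galnt1, an enzyme of ganglioside synthesis, differed by −2.07 ± 0.16 SE. The others were Arfip2, an arfaptin of membrane traffic (−1.90 ± 0.19 SE), Amt of the mitochondrial glycine cleavage system (−1.85 ± 0.15 SE), Pla2g4b, a cytosolic phospholipase A2 (−1.77 ± 0.20 SE), Per2 of the circadian clock (−1.76 ± 0.16 SE) and Lig4, the DNA ligase of end joining (−1.76 ± 0.15 SE). RT1-CE14, of the rat class I histocompatibility genes (−1.86 ± 0.22 SE), and Tnxa-ps1, a tenascin X pseudogene by its symbol (−1.75 ± 0.14 SE), have near-identical copies that the counting could split, so their values are uncertain. Adjusted p by limma was at most 9.28e-06 in the 12 falls, that of RT1-CE14.

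**Figure D1:**
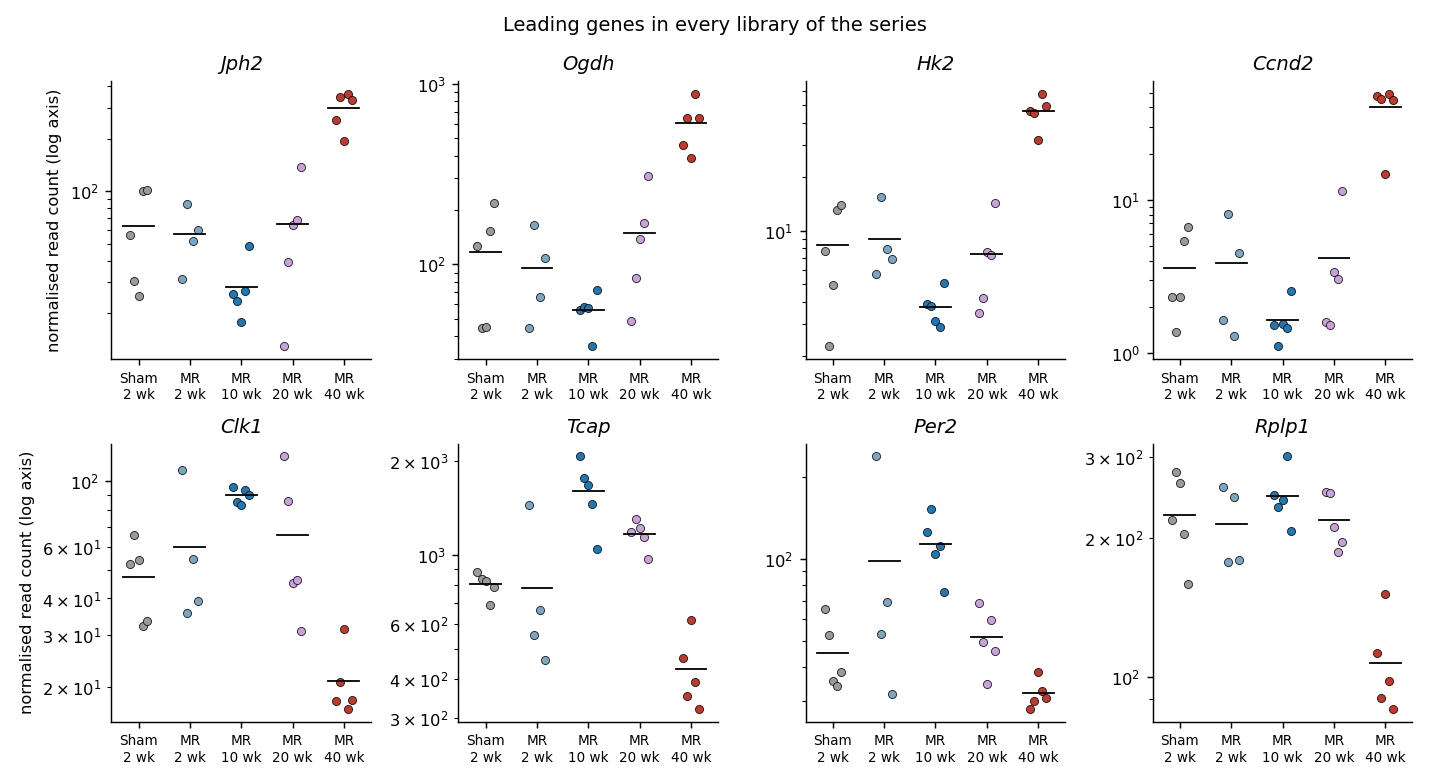
Normalised read count (log axis) of 8 genes in all 24 libraries, grouped as Sham at 2 weeks and MR at 2, 10, 20 and 40 weeks; points are libraries and lines the arithmetic means. Jph2, Ogdh, Hk2 and Ccnd2 are higher and Clk1, Tcap, Per2 and Rplp1 lower in the 5 libraries at 40 weeks than in the 5 at 10 weeks, and MR at 20 weeks spreads over much of the range between them for Jph2, Ogdh and Clk1.

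The other groups show where these levels lie in the series. For 12 of 12 leading rises and 12 of 12 leading falls the median of MR at 20 weeks and the median of Sham at 2 weeks lay between those of MR at 40 weeks and MR at 10 weeks. For MR at 2 weeks this held for 11 of 12 rises, the exception being Hcn4. Libraries of these groups also spread widely: over the 12 rises, the highest library of MR at 20 weeks was 7.42 times the lowest (median over genes), against 4.86 times in Sham, 3.60 times in MR at 2 weeks, 2.26 times in MR at 40 weeks and 2.00 times in MR at 10 weeks. Jph2, for example, ran from 12.9 to 138 in MR at 20 weeks and from 25 to 102 in Sham. Choosing genes by their gap between MR at 40 and 10 weeks favours medians of other groups in between. Choosing genes in which MR at 40 and 10 weeks do not overlap favours small spreads within these groups. Of the 12 rises 11 had every library at 40 weeks above all 19 other libraries, and of the 12 falls 5 had every library below them. The choice of these genes favours such counts, since MR at 10 weeks makes up 5 of the 19. Among all genes that rose 25.5% lay above the other 19 libraries, and among all that fell 13.5% lay below.

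A per-library difference was taken between the mean log2 level of the 12 rises and that of the 12 falls. It was 0.93 to 2.53 in MR at 40 weeks and −3.59 to −2.95 in MR at 10 weeks, which is a description, since the genes were chosen on these libraries. In libraries not used to choose them it was −3.83 to −0.02 in MR at 20 weeks, −3.91 to −0.76 in MR at 2 weeks and −3.31 to −0.65 in Sham. MR at 10 weeks had the lowest mean and the smallest spread of the 5 groups, both of which the choice of the genes favours. What moves these genes within a group was not tested.

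**Figure D2:**
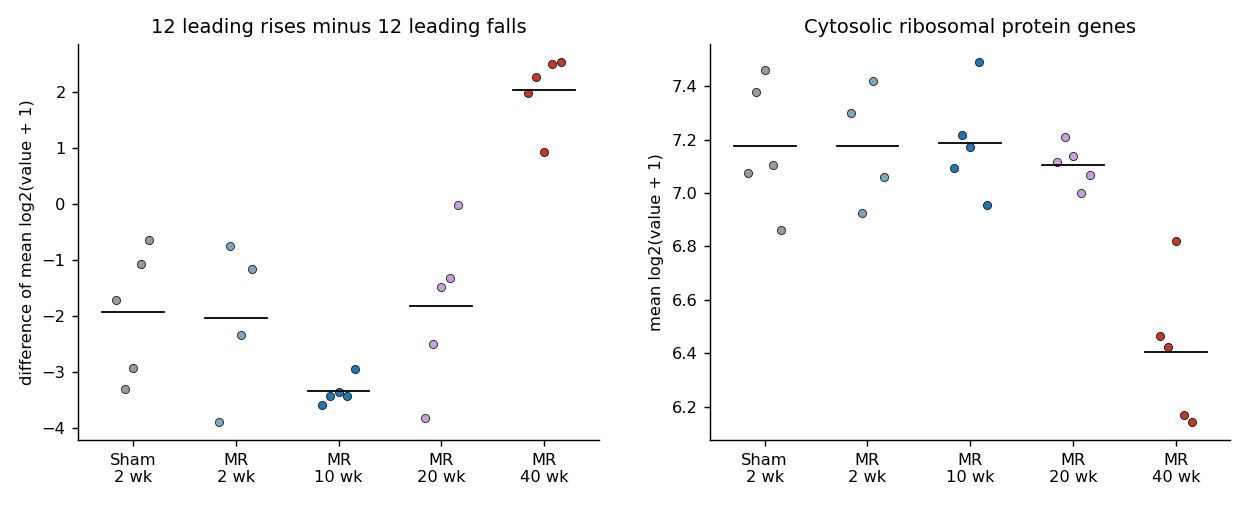
Left, mean log2(value + 1) of the 12 leading rises minus that of the 12 leading falls in each library; right, mean log2(value + 1) of the 78 cytosolic ribosomal protein genes. Points are libraries and lines means of Sham at 2 weeks and MR at 2, 10, 20 and 40 weeks; on the left the groups other than MR at 10 and 40 weeks spread widely, and on the right the libraries at 40 weeks (6.14 to 6.82) lie below all others (6.86 to 7.49).

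Most of the calcium handling genes rose. Of 27 tested members of the calcium cycling list 15 rose and 2 fell, with a median log2 fold change of 0.58 (12 and 6 on the deposited scale); 1 fell without MR 40 weeks replicate 2 or 5, or without MR 10 weeks replicate 1, 3 or 4. Atp2a2, the SERCA2 pump that returns calcium to the sarcoplasmic reticulum, was at 5690, 8346, 6614, 9137 and 7660 at 40 weeks and at 3011, 3002, 3048, 1983 and 2888 at 10 weeks (1.42 ± 0.21 SE; limma, adjusted p = 5.8e-05). Its inhibitor Pln, phospholamban, averaged 1920 ± 318 at 40 weeks and 1630 ± 220 at 10 weeks (SD, n = 5 each) and did not pass (0.23 ± 0.17 SE; limma, adjusted p = 0.257). Ryr2, the calcium release channel, averaged 1084 ± 288 at 40 weeks and 406 ± 42.6 at 10 weeks (SD, n = 5 each) and rose by 1.38. Slc8a1, the sodium-calcium exchanger, rose by 1.26, Camk2g, a calcium-dependent kinase, by 1.46, and Jph1, the second junctophilin measured, by 2.70.

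Potassium and sodium channel genes moved the same way: 17 of 27 rose and 2 fell, with a median of 0.73 (15 and 4 on the deposited scale). Beside Kcnk3 and Hcn4, members with small p were Kcnj3, a G-protein-gated potassium channel known from atrial muscle, at 12.8 ± 3.97 at 40 weeks and 1.22 ± 0.56 at 10 weeks (SD, n = 5 each; 2.61), and Hcn2, the second pacemaker channel (2.18). Atrial genes moved in both directions: Myl7 and Myl4, the atrial light chains, fell by 1.44 and 1.22 on the log2 scale. Of the 11 tested atrial markers 4 rose and 2 fell (4 and 3 on the deposited scale). These are 36.4% and 18.2%, beside 29.1% and 27.7% of all genes. The summed atrial markers were at 823 to 3143 at 40 weeks and 638 to 4442 at 10 weeks, and Sln and Bmp10 are not in the tables. The part of atrial tissue in the channel results was not tested. Fewer cells of a type and less RNA per cell cannot be told apart in these bulk samples.

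Of 31 sarcomere genes 13 rose and 8 fell (41.9% and 25.8%), beside 29.1% and 27.7% of all genes. Their median was 0.34 (10 rose and 11 fell on the deposited scale). Without MR 40 weeks replicate 5, or without MR 10 weeks replicate 3, 5 fell. Rises were in Nebl, nebulette of the Z-disc (2.26 ± 0.34 SE), Pdlim5, a Z-disc adaptor (2.24 ± 0.13 SE), Mylk3, the cardiac myosin light chain kinase (2.07 ± 0.13 SE), Myom2 of the M-band (1.81 ± 0.14 SE), Flnc, filamin C (1.55 ± 0.13 SE) and Actc1, cardiac actin (0.98 ± 0.20 SE). Falls beside Tcap were in Tpm2, a tropomyosin (−1.31 ± 0.31 SE), Myh7b (−1.30 ± 0.18 SE) and Tnni3, cardiac troponin I, which averaged 1853 ± 370 at 40 weeks and 3522 ± 587 at 10 weeks (SD, n = 5 each; −0.93 ± 0.19 SE). Intercalated disc and costamere genes, which join muscle cells to each other and to matrix, rose in 21 of 29 cases and fell in 4, with a median of 0.62 (17 and 4 on the deposited scale). Gja1, connexin 43, was at 266, 342, 305, 389 and 326 at 40 weeks and at 95.1, 115, 95.9, 93.1 and 155 at 10 weeks (1.56 ± 0.15 SE). Cdh2, N-cadherin, rose by 1.39 and Lims1, an adaptor of integrin-linked kinase, by 2.29.

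The classical genes of cardiac stress did not separate the groups. Nppa, atrial natriuretic peptide, was at 1982, 227, 82.5, 240 and 615 at 40 weeks and at 173, 384, 1427, 3920 and 224 at 10 weeks (−0.78 ± 0.86 SE; limma, adjusted p = 0.455), so the spread within each group exceeded the difference between them. Nppb, B-type natriuretic peptide, averaged 242 ± 75.5 at 40 weeks and 266 ± 79.8 at 10 weeks (SD, n = 5 each; −0.14 ± 0.22 SE; limma, adjusted p = 0.598). The slow myosin heavy chain Myh7 differed by 0.56 ± 0.28 SE (adjusted p = 0.099), and the fast one, Myh6, by 0.45 ± 0.35 SE (adjusted p = 0.287), both by limma. Myh7 passed in DESeq2, without a mean trend, with library weights and among genes with a mean of at least 10, and without MR 10 weeks replicate 4 its difference was 0.72 (limma, adjusted p = 0.0221). That library had the highest Nppa, Nppb, Myh7, Postn, Ankrd1 and Gdf15 and the lowest Myh6 and Atp2a2 of its group, and leaving it out also called Gdf15, a stress cytokine, and Ankrd1, a stretch-responsive nuclear protein (0.85 and 0.54; limma, adjusted p = 0.00799 and 0.0339).

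Of the 20 tested stress genes 7 rose and 2 fell (35% and 10%), beside 29.1% and 27.7% of all genes. Their median was 0.48 (7 rose and 3 fell on the deposited scale), and 13 rose without MR 10 weeks replicate 4. The falls were of Acta2, smooth muscle actin, and Csrp3, a Z-disc LIM protein (−1.17 and −0.48), and 0 or 1 fell without MR 40 weeks replicate 4 or 5 or without MR 10 weeks replicate 3, 4 or 5. The rises with the smallest p were Hspb7, a small heat shock protein of heart muscle (1.01 ± 0.13 SE), Fhl1, a LIM protein of the sarcomere (0.72 ± 0.11 SE), Rcan1, a target and inhibitor of calcineurin (0.90 ± 0.18 SE), and Mybpc2 (1.04 ± 0.22 SE). In the panel of 18 heart genes 3 rose and 1 fell: Atp2a2, Ppargc1a and Pdk4 rose and Per2 fell. Acta1, skeletal actin, Col1a1, Col3a1, Postn, Timp1, Cpt1b and Top2a were at 0.25, 0.37, −0.32, −0.31, −0.69, 0.29 and 0.38 and did not pass (limma, adjusted p from 0.0552 for Timp1 to 0.6 for Postn). For Acta1 the sign turned without MR 10 weeks replicate 5, and for Nppb and Postn without MR 10 weeks replicate 4. Col3a1 passed on the deposited scale (−0.59). Col1a1 passed without MR 10 weeks replicate 5, and Cpt1b without MR 40 weeks replicate 1 or MR 10 weeks replicate 3. Timp1, an inhibitor of matrix proteases, passed without MR 40 weeks replicate 3 or MR 10 weeks replicate 1 or 2, and also on the deposited scale (−0.92), with edgeR and with DESeq2. Top2a, a marker of dividing cells, passed without MR 40 weeks replicate 2 or MR 10 weeks replicate 3 and with edgeR.

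Hypertrophic signalling genes held one of the highest shares of rises. In the calcineurin, NFAT and MEF2 list 29 of 37 genes rose and 3 fell, with a median of 0.90 (24 and 5 on the deposited scale). Tbx20, a cardiac T-box factor, was at 12.2, 14, 4.36, 23.6 and 16.6 at 40 weeks and at 0.336, 0.645, 0.375, 0.976 and 0.948 at 10 weeks (3.05 ± 0.31 SE), replicate 3 being the lowest at 40 weeks. Gata4, a cardiac transcription factor, averaged 80.4 ± 15.7 at 40 weeks and 22.1 ± 5.23 at 10 weeks (SD, n = 5 each; 1.82 ± 0.17 SE). Ppp3cb, a catalytic subunit of calcineurin, rose by 1.63, Mef2a, a growth-related transcription factor, by 1.52 and the insulin-signalling kinase Akt2 by 1.80.

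In the adrenergic and renin-angiotensin list 21 of 33 genes rose and 3 fell, with a median of 0.87 (18 and 6 on the deposited scale). The receptors Adra1a and Adrb1 rose by 2.25 and 1.49, and Adcy5, an adenylyl cyclase of heart muscle, was at 191, 186, 127, 228 and 196 at 40 weeks and at 60.7, 57.4, 70.8, 59.4 and 70.5 at 10 weeks (1.5 ± 0.14 SE). The protein kinase A regulatory subunits Prkar2a and Prkar1a rose by 2.86 and 1.31 and the phosphodiesterase Pde3a by 2.62. Maoa, which breaks down catecholamines, was at 550, 185, 103, 375 and 193 at 40 weeks and at 31.6, 36, 83, 83.3 and 41.8 at 10 weeks (2.21 ± 0.39 SE).

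**Figure D3:**
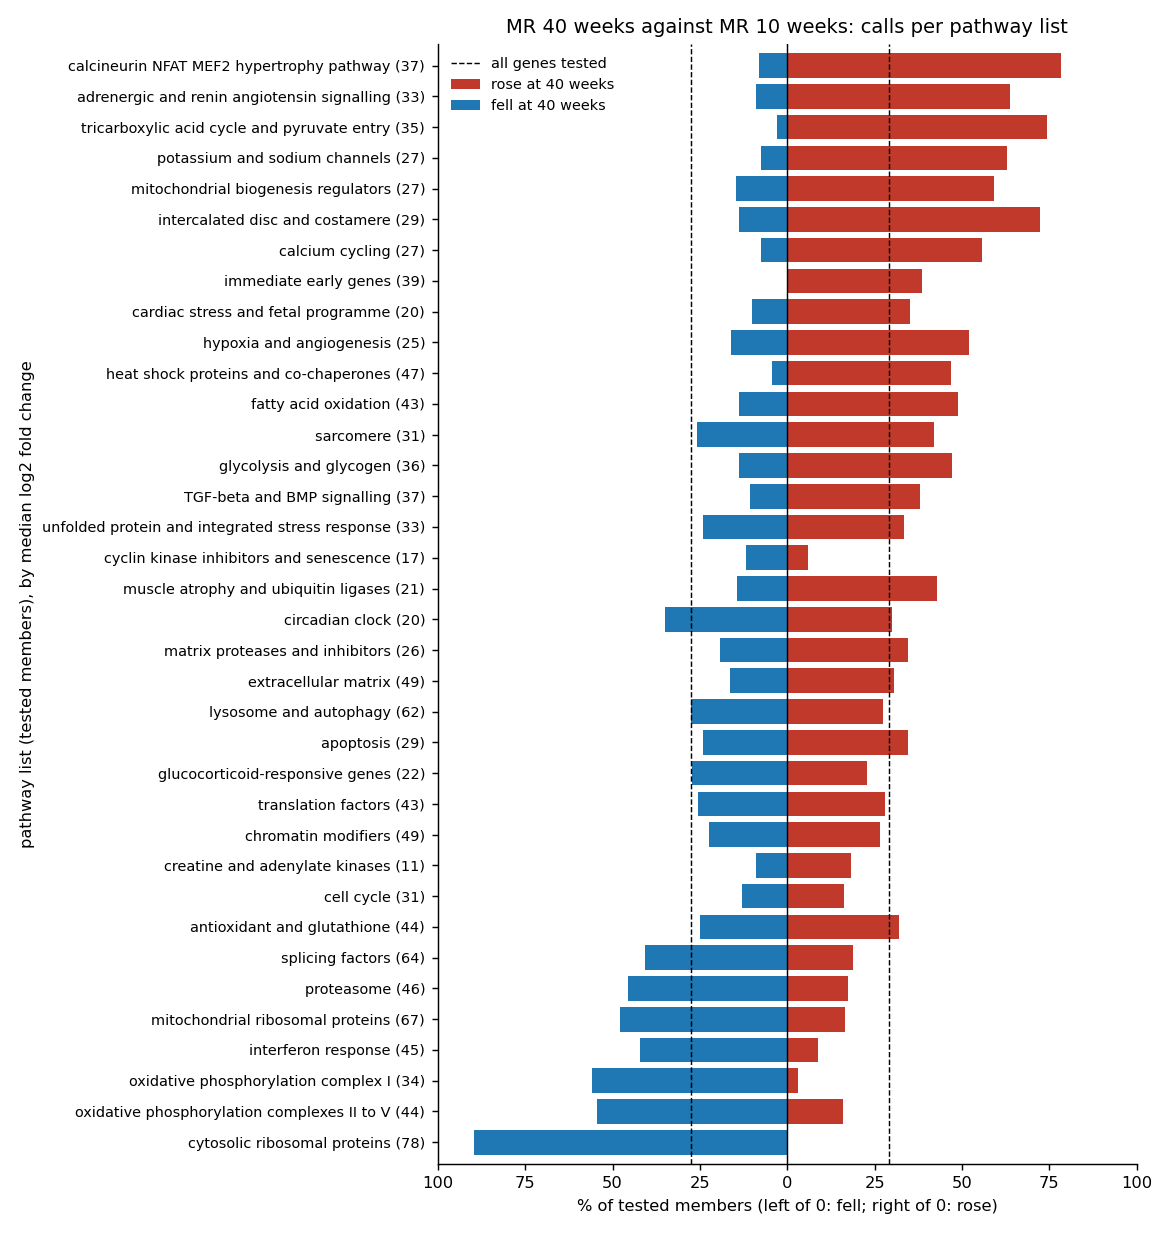
Percentage of the tested members of each of 36 pathway lists that rose (right) or fell (left) in MR at 40 weeks against MR at 10 weeks, ordered by the median log2 fold change; dashed lines mark the 29.1% and 27.7% of all genes tested. The calcineurin, citric acid cycle and intercalated disc lists lie far past the line on the right, and the cytosolic ribosomal list, in which 70 of 78 fell, farthest past it on the left.

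Within energy metabolism the citric acid cycle and the respiratory chain moved apart. The list of the cycle and that of complexes II to V share Sdha, Sdhb, Sdhc and Sdhd. In the list of the cycle and pyruvate entry 26 of 35 genes rose and 1 fell, with a median of 0.85 (23 and 2 on the deposited scale). Cs, citrate synthase, which starts the cycle, was at 144, 172, 142, 295 and 198 at 40 weeks and at 38.2, 45.9, 46.6, 32.3 and 55.7 at 10 weeks (2.06 ± 0.19 SE; limma, adjusted p = 1.51e-06). Dlat, a core enzyme of pyruvate dehydrogenase, rose by 1.81 ± 0.19 SE. The kinases that switch pyruvate dehydrogenase off rose too: Pdk1 by 1.57 ± 0.13 SE and Pdk4 by 1.06 ± 0.23 SE. Pdk4 was at 42, 40.6, 96.4, 49.4 and 49.1 at 40 weeks, replicate 3 being high, and at 27.5, 32.4, 25.6, 14.7 and 26.9 at 10 weeks. The 1 fall, in Suclg1, a subunit of succinyl-CoA synthetase (−0.30; limma, adjusted p = 0.0496), was at the threshold.

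Genes of respiratory complex I fell in 19 of 34 cases and rose in 1, with a median of −0.45 (27 and 1 on the deposited scale). Genes of complexes II to V fell in 24 of 44 cases and rose in 7, with a median of −0.48 (31 and 3 on the deposited scale); 3 rose when all 24 libraries were fitted together. Many of the falls were of small accessory subunits: Ndufb7 averaged 276 ± 63.1 at 40 weeks and 587 ± 97.4 at 10 weeks (SD, n = 5 each; −1.10 ± 0.17 SE), and Ndufb3, Ndufs5, Atp5i, Cox7a2 and the ATPase inhibitor Atpif1 fell by 1.05, 1.02, 1.11, 0.95 and 1.07 on the log2 scale. The core subunits Ndufs7 and Ndufs8 of complex I fell too, by 0.64 and 0.45 on the log2 scale. The largest rises were of catalytic or core subunits: Ndufs1, the iron-sulfur subunit of complex I, was at 262, 294, 262, 525 and 334 at 40 weeks and at 63.2, 76.1, 72.2, 35.6 and 87.1 at 10 weeks (2.32 ± 0.23 SE). Sdha, which oxidises succinate, rose by 1.36 ± 0.19 SE, Uqcrc2, a core subunit of complex III, by 0.86 ± 0.19 SE and Atp5a1, the alpha subunit of ATP synthase, by 0.83 ± 0.19 SE. No gene of the mitochondrial chromosome is in the tables.

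Span on the genome moved with these results. Of the 78 nuclear respiratory genes, the 54 that span under 10 kb held 35 falls and 3 rises (median −0.59), and the 24 longer ones 8 falls and 5 rises (median −0.15). Over all genes tested, those under 10 kb held 1176 falls and 452 rises of 2833 genes (median −0.24), and longer genes 1585 falls and 2448 rises of 7141 (median 0.08). From the shortest 10% to the longest 10% of the genes the median ran from −0.30 to 0.30, and the share that rose from 13.9% to 46.3%. Span and fold change had a Spearman correlation of 0.30 across 9974 genes, which share their libraries and are not independent. The part of gene length in any list's result was not tested.

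**Figure D4:**
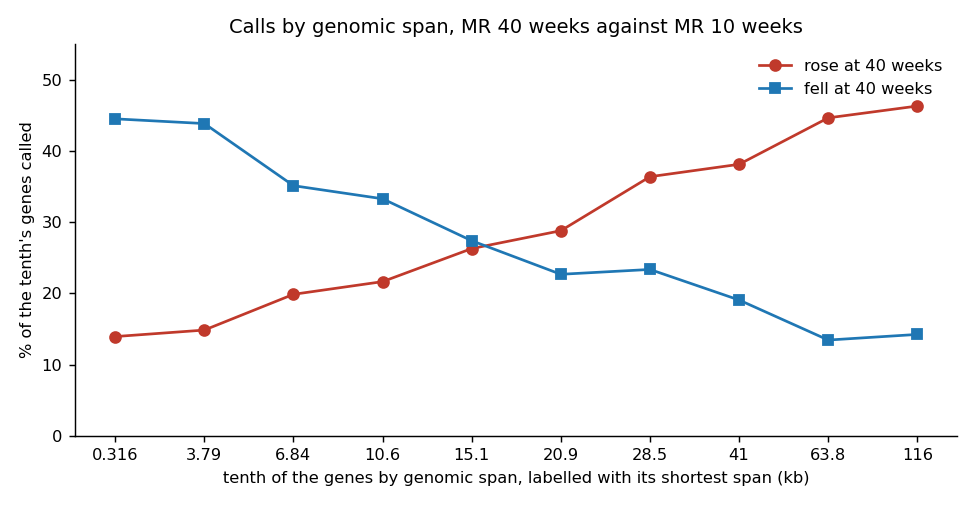
Percentage of genes that rose and fell in MR at 40 weeks against MR at 10 weeks, for 10 equal bins of the 9974 genes ordered by genomic span in kb. The share that rose climbs from 13.9% in the shortest to 46.3% in the longest bin, and the share that fell drops from 44.5% to 14.2%.

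Genes of fatty acid oxidation rose in 21 of 43 cases and fell in 6, with a median of 0.34 (15 and 9 on the deposited scale). Lpl, lipoprotein lipase, which frees fatty acids for uptake, was at 927, 1429, 1062, 1532 and 1423 at 40 weeks and at 312, 484, 340, 348 and 384 at 10 weeks (1.76 ± 0.17 SE). Acot2, a mitochondrial acyl-CoA thioesterase, rose by 1.84, Etfdh, which passes electrons from fatty acid oxidation to the respiratory chain, by 1.37, and Hadhb, of the trifunctional protein, by 1.30. Cpt1b, the gate of fatty acid entry into mitochondria, was at 273 ± 35 at 40 weeks and 223 ± 29.2 at 10 weeks (SD, n = 5 each) and did not pass (0.29 ± 0.13 SE; limma, adjusted p = 0.0593). Fabp4, a fatty acid carrier of capillary endothelium and fat cells, fell by 1.47 on the log2 scale.

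Glycolysis and glycogen genes rose in 17 of 36 cases and fell in 5, with a median of 0.30 (14 and 6 on the deposited scale); 3 fell without MR 40 weeks replicate 1 or without MR 10 weeks replicate 2 or 3. Beside Hk2, the lactate and pyruvate transporter Slc16a1 was at 180 ± 39 at 40 weeks and 31.7 ± 4.74 at 10 weeks (SD, n = 5 each; 2.45 ± 0.16 SE). Enzymes of glycogen breakdown rose: Pygm, muscle glycogen phosphorylase, by 1.61 and Phkb, of phosphorylase kinase, by 1.97. Ugp2, which makes UDP-glucose for glycogen, rose by 0.90 ± 0.09 SE. Of 11 creatine and adenylate kinase genes 2 rose and 1 fell (1 and 4 on the deposited scale); only the creatine transporter Slc6a8 (0.74) held its call in every setting run.

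Regulators of mitochondrial number and shape rose in 16 of 27 cases and fell in 4, with a median of 0.65 (14 and 7 on the deposited scale). Ppargc1a, PGC-1α, the coactivator of mitochondrial biogenesis, was at 8.37, 10.9, 5.62, 24.7 and 15.3 at 40 weeks and at 2.73, 7.14, 3.04, 7.13 and 2.53 at 10 weeks; the groups overlapped and the gene passed (1.29 ± 0.34 SE; limma, adjusted p = 0.00469). Its partner Esrrg, an estrogen-related receptor, rose by 2.34 and Ppara, the fatty acid receptor, by 1.5. The fusion gene Mfn2 averaged 296 ± 33.8 at 40 weeks and 114 ± 12.3 at 10 weeks (SD, n = 5 each; 1.37 ± 0.11 SE). The fission gene Dnm1l rose by 2.30 and the mitophagy kinase Pink1 by 1.59. Mitochondrial ribosomal protein genes fell in 32 of 67 cases and rose in 11, with a median of −0.28 (44 and 6 on the deposited scale), from −1.0 in Mrps26 to 1.68 in Mrpl51.

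**Figure D5:**
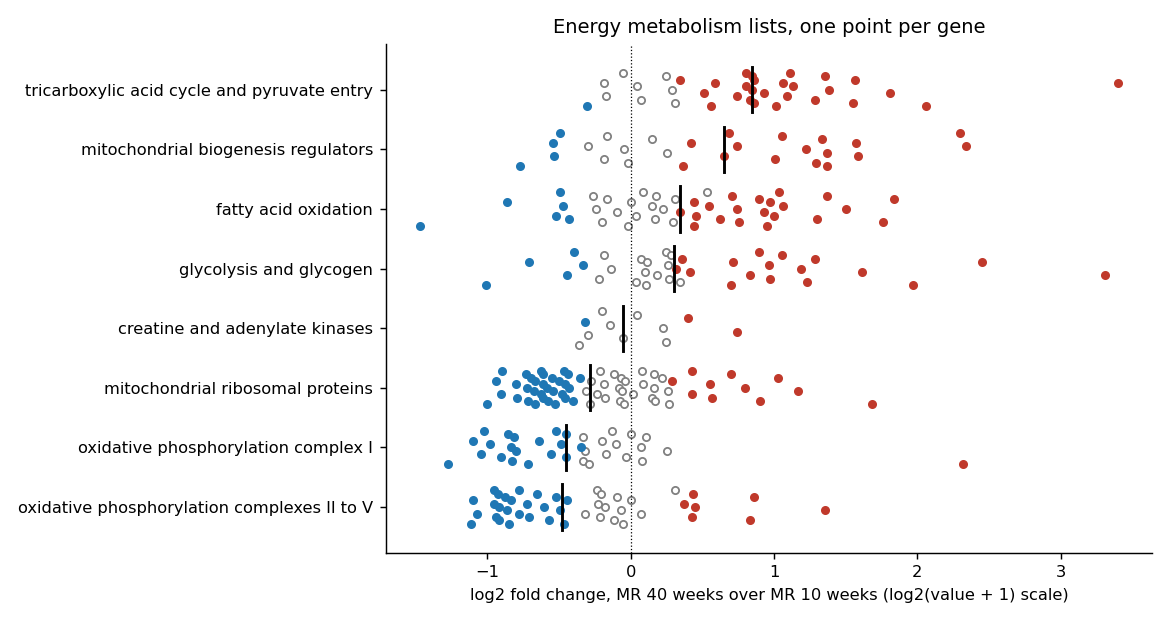
Log2 fold change of each gene in 8 energy metabolism lists, MR at 40 weeks over MR at 10 weeks; red points rose and blue points fell at an adjusted p under 0.05, open points did not pass, and black bars are medians. Citric acid cycle genes (median 0.85) and mitochondrial regulators (0.65) lie mostly right of 0 and respiratory chain genes (−0.45 and −0.48) mostly left, with Ndufs1 alone past 2 on the right among them.

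Cytosolic ribosomal protein genes fell almost as a block. The proteins they encode build the ribosome, and their mRNAs typically begin with a C and a run of pyrimidines through which their translation is controlled by mTOR signalling. Of 78 tested genes 70 fell and 0 rose, with a median of −0.80 (75 and 0 on the deposited scale; 0 rose also with edgeR and DESeq2). Rplp1, of the ribosomal stalk, was at 113, 90.2, 151, 98.3 and 85.4 at 40 weeks and at 248, 233, 242, 300 and 207 at 10 weeks (−1.21 ± 0.15 SE; limma, adjusted p = 1.68e-05). Rps27a, made as a fusion with ubiquitin, Rpl36 and Rpl13a fell by 1.48, 1.47 and 1.46 on the log2 scale. MR 40 weeks replicate 3 was the highest of its group in each of these 4 genes. Ribosomal protein genes have many near-identical pseudogenes, so single values are uncertain where the counting could split reads.

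The starts of 6 ribosomal protein genes that fell are shown because they carry the pyrimidine run. They are the 6 with the largest falls among matched genes with a run, in 30 bases around the annotated start from RefSeq (GRCr8). Capitals mark the C at the start and the pyrimidines that follow it.
Rpl35a: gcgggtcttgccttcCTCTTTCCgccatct
Rplp1: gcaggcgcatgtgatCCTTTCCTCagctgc
Rpl22: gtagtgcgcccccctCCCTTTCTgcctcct
Rpl28: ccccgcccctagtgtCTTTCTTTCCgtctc
Rpl31: ccacaatccctcgcgCCTTTCCTTTCCaac
Rps15: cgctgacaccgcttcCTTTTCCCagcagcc
They lie at chr11:81235007-81235036 (minus strand), chr8:71290858-71290887 (minus), chr5:168117946-168117975 (plus), chr1:78083518-78083547 (minus), chr9:49143096-49143125 (plus) and chr7:10068101-10068130 (minus). Their log2 fold changes were −1.31, −1.21, −1.11, −1.10, −1.08 and −1.06 in that order. A C followed by at least 4 pyrimidines stood at the annotated start of 24 of 61 matched ribosomal protein genes (39.3%) and of 209 of 7526 matched genes tested (2.78%). Genes with the run fell in 21 of 24 cases (median −0.77) and those without it in 32 of 37 (median −0.80). Most genes of both parts fell, and the run was sought only at the annotated start. The part of the run in these falls was not tested.

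The ribosomal list also stood apart from the other times. Its mean log2 level was 6.14 to 6.82 in MR at 40 weeks, below 6.96 to 7.49 in MR at 10 weeks, 7.0 to 7.21 in MR at 20 weeks, 6.93 to 7.42 in MR at 2 weeks and 6.86 to 7.46 in Sham. For 31 of 78 genes every library at 40 weeks was below all 19 others, beside 3.76% of all genes and 13.5% of those that fell. In MR at 20 weeks, where the leading genes spread widely, the ribosomal mean had the smallest spread of the groups. Of 43 translation factors 12 rose and 11 fell, close to the shares of all genes (29.1% and 27.7%), with a median of −0.04 (7 and 22 on the deposited scale). Eif4ebp2, which blocks the cap-binding factor, was at 19 ± 4.96 at 40 weeks and 2.44 ± 0.447 at 10 weeks (SD, n = 5 each; 2.51 ± 0.17 SE), and Eef1a2, the muscle elongation factor, rose by 1.28.

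Splicing factor genes fell in 26 of 64 cases and rose in 12, with a median of −0.16 (40 and 7 on the deposited scale). Kinases of SR proteins fell with Clk1: Clk3 by 1.53 and Clk4 by 1.52 on the log2 scale. Srrm1, Srsf11 and Rbm5, factors of splice site choice, fell by 1.29, 1.26 and 1.35 on the same scale. Mbnl1 and Celf1, which set the fetal and adult splicing patterns of heart muscle, rose by 1.89 ± 0.23 SE and 1.69 ± 0.19 SE. Of 49 chromatin modifier genes 13 rose and 11 fell (6 and 23 on the deposited scale), no more than the shares of all genes (29.1% and 27.7%). Their median was −0.05. Smarcc1, a subunit of the SWI/SNF remodeller, rose by 1.54, and Kat2a, a histone acetyltransferase, Kdm4b and Ehmt2 fell by 1.23, 0.59 and 0.57 on the log2 scale.

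Genes that keep protein quality were split by system. Heat shock proteins and their partners rose in 22 of 47 cases and fell in 2, with a median of 0.34 (10 and 9 on the deposited scale); 1 fell without any one of 7 libraries and 4 without MR 40 weeks replicate 3. Hsp90ab1, a cytosolic chaperone, was at 623, 657, 565, 681 and 651 at 40 weeks and at 290, 326, 335, 298 and 340 at 10 weeks (1.0 ± 0.11 SE), and Hspa9, the mitochondrial one, rose by 1.42 ± 0.17 SE. Proteasome genes fell in 21 of 46 cases and rose in 8, with a median of −0.23 (32 and 2 on the deposited scale). Subunits of the immunoproteasome were lowest: Psme2, Psmb9 and Psmb8 fell by 1.31, 1.13 and 1.08 on the log2 scale, while Psmd1 and Psmd11 of the regulatory particle rose by 0.84 and 0.82.

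Of 21 muscle atrophy and ubiquitin ligase genes 9 rose and 3 fell, with a median of 0.15 that turned to −0.08 on the deposited scale (6 and 7 there); 1 fell without MR 40 weeks replicate 5 or without MR 10 weeks replicate 1 or 3. Fbxo32, atrogin-1, a muscle ubiquitin ligase, was at 13.8, 11.4, 5.97, 16.1 and 17.6 at 40 weeks and at 0.56, 1.1, 1.08, 0.781 and 1.09 at 10 weeks (2.79 ± 0.23 SE). Its known activators Foxo3 and Foxo1 rose by 1.75 and 1.37. Of 33 genes of the unfolded protein and integrated stress responses 11 rose and 8 fell, near the shares of all genes (29.1% and 27.7%). Their median of 0.19 turned to −0.08 on the deposited scale (5 and 12 there). Atf6, a sensor of unfolded protein, rose by 2.11 and Ddit3, CHOP, a death-promoting factor of the same response, fell by 1.40 on the log2 scale. Of 62 lysosome and autophagy genes 17 rose and 17 fell, again near the shares of all genes. Their median of 0.01 was below 0 under each of the 3 other scalings (8 rose and 26 fell on the deposited scale). Atp6v0b, of the proton pump, fell by 1.16 on the log2 scale.

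Clock genes changed in both directions. In the known cycle Arntl (BMAL1) and Clock drive the Per, Cry and Nr1d genes and outputs such as Dbp and Tef, whose products feed back on them, so the groups peak at different times of day. The labels do not give the time of day, whose part in these values was not tested. Of 20 tested genes 6 rose and 7 fell (30% and 35%), near the shares of all genes (29.1% and 27.7%). Their median of 0.15 turned to −0.12 on the deposited scale (6 and 9 there). Per2 was at 28.1, 30.1, 38.6, 32.7 and 30.9 at 40 weeks and at 125, 152, 104, 111 and 75.7 at 10 weeks (limma, adjusted p = 1.05e-06). Dbp was at 12.2, 27.1, 27.6, 34.2 and 12.4 at 40 weeks and at 98.4, 99.1, 91.3, 32.7 and 71.1 at 10 weeks (−1.76 ± 0.32 SE). Per3, Ciart, Tef and Nr1d2, also driven by the Clock complex, fell by 1.71, 1.24, 0.78 and 0.68 on the log2 scale.

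Among the rises, Arntl was at 15.5, 9.87, 7.58, 13.1 and 16.2 at 40 weeks and at 1.27, 1.52, 2.79, 10.1 and 6.92 at 10 weeks (1.52 ± 0.38 SE; limma, adjusted p = 0.00344). MR 10 weeks replicate 4 was the highest of its group for Arntl and the lowest for Dbp, and there both overlapped the 40-week libraries. Clock rose by 0.77 and Nampt, a NAD-making enzyme with a clock-driven promoter, by 1.23. Per2 was also at 34.6 to 68.9 in MR at 20 weeks, 31.9 to 238 in MR at 2 weeks and 34.2 to 65.7 in Sham, so MR at 10 weeks held the high values apart from 1 library of MR at 2 weeks.

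The stretches of 3 clock promoters are shown because these genes fell and carry motifs that clock factors are known to bind. CACGTG is the E-box of the Clock complex, CACGTT the E′-box known from Per2, and TTATGTAA a D-box, the site of Dbp and its relatives. Capitals mark the matches, in RefSeq promoters of GRCr8 searched on both strands over 250 bases before the start.
Per2: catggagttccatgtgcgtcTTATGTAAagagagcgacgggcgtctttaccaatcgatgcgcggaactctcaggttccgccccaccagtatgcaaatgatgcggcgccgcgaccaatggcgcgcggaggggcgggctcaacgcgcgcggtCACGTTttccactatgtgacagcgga
Ciart: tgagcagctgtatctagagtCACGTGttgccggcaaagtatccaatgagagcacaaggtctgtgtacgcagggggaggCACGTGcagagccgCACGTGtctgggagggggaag
Tef: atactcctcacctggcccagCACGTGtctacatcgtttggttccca
They lie at chr9:99497030-99497205 (minus strand), chr2:186112247-186112359 (minus) and chr7:115206609-115206654 (plus). CACGTG was found in 8.56% of 7526 matched promoters and in 3 of 13 clock promoters, CACGTT in 4.94% and 2 of 13, TTATGTAA in 0.425% and 1 of 13, and the related TTACGTAA in 0.12% and 0 of 13. A match describes the letters and is not a measured binding site.

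Immediate early genes, which answer within minutes to stretch, hormones or tissue handling, rose in 15 of 39 cases and fell in 0, with a median of 0.50 (12 and 4 on the deposited scale; 2 fell without MR 40 weeks replicate 2 and 3 without replicate 3). Egr1 was at 15, 114, 190, 26.7 and 36.9 at 40 weeks and at 8.37, 12.2, 10.6, 12.4 and 15.1 at 10 weeks (2.04 ± 0.51 SE; limma, adjusted p = 0.00346), replicates 2 and 3 being far above the others at 40 weeks. Fos was at 12.3, 85.1, 158, 18.3 and 19.7 at 40 weeks and at 5.9, 12.9, 6.04, 19.4 and 14.1 at 10 weeks, and was not called without MR 40 weeks replicate 2 (1.39; limma, adjusted p = 0.0594) or without MR 10 weeks replicate 1 or 3 (adjusted p = 0.0554 and 0.0556). Nr4a3, an orphan nuclear receptor, rose by 2.32 and Sik1, a salt-inducible kinase, by 1.14. Handling at harvest is not in the labels, and its part was not tested. Of 22 glucocorticoid-responsive genes 5 rose and 6 fell, no more than the shares of all genes (5 and 10 on the deposited scale): Klf9 and Glul rose by 1.27 and 0.95, and Tsc22d3 (GILZ) fell by 0.92 on the log2 scale.

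Growth and survival genes changed in single members more than as lists. Of 31 cell cycle genes 5 rose and 4 fell (4 and 10 on the deposited scale), and 2 fell without MR 40 weeks replicate 2 or without MR 10 weeks replicate 3. Beside Ccnd2, Mcm2, a replication licensing factor, rose by 0.56, and Stmn1 and Cdk2 fell by 0.52 and 0.60 on the log2 scale. Of 17 genes of cyclin kinase inhibition and senescence 1 rose, Igfbp5, an IGF-binding protein (2.75 ± 0.26 SE), and 2 fell, Rb1 and Igfbp7 (−0.49 and −0.44; 1 and 6 on the deposited scale, with 5 rises without MR 40 weeks replicate 5, 3 without replicate 1 and 4 falls without replicate 3). Of 29 apoptosis genes 10 rose and 7 fell (8 and 13 on the deposited scale), near the shares of all genes (29.1% and 27.7%). Xiap and Bcl2l13 rose by 1.61 and 2.10, and Bax and Bbc3 fell by 1.49 and 1.14 on the log2 scale.

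Hypoxia and angiogenesis genes rose in 13 of 25 cases and fell in 4, with a median of 0.44 (9 and 6 on the deposited scale). Egln3, an oxygen-sensing hydroxylase, was at 235, 228, 154, 311 and 233 at 40 weeks and at 57.6, 60.1, 64.8, 56.6 and 64 at 10 weeks (1.89 ± 0.15 SE). Epas1, HIF-2α, rose by 1.49, the coreceptor Nrp1 by 1.79 and Angpt1, which steadies vessels, by 2.17. Vegfa, the main vessel growth factor, averaged 589 ± 76.8 at 40 weeks and 1081 ± 256 at 10 weeks (SD, n = 5 each) and fell by 0.85 on the log2 scale. Of 44 antioxidant genes 14 rose and 11 fell (7 and 21 on the deposited scale), near the shares of all genes (29.1% and 27.7%). Their median was −0.12. Prdx6 rose by 1.42, Sod2, the mitochondrial superoxide dismutase, by 0.68 and Srxn1 by 1.0, and Gss, glutathione synthetase, fell by 0.87 on the log2 scale.

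The matrix list was close to balance and the fibrillar collagens did not pass. Of 49 extracellular matrix genes 15 rose and 8 fell (30.6% and 16.3%), beside 29.1% and 27.7% of all genes. Their median of 0.02 was below 0 on the deposited scale (9 rose and 12 fell) and on that set by library totals. Col1a1 averaged 109 ± 23.4 at 40 weeks and 86.6 ± 29.4 at 10 weeks (SD, n = 5 each; 0.37 ± 0.21 SE; limma, adjusted p = 0.143), and Col3a1 255 ± 73.5 at 40 weeks and 327 ± 124 at 10 weeks (SD, n = 5 each; −0.32 ± 0.23 SE; limma, adjusted p = 0.254). Thbs1, thrombospondin 1, which activates TGF-β, was at 40.5, 47.8, 56.1, 39.8 and 42.9 at 40 weeks and at 7.02, 6.31, 12.4, 17 and 14.2 at 10 weeks (1.98 ± 0.22 SE). Ogn, osteoglycin, and Lamc1, a basement membrane laminin, rose by 1.05 and 0.84, and Efemp2, an elastic fibre protein, fell by 1.03 on the log2 scale.

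Of 26 matrix proteases and inhibitors 9 rose and 5 fell (34.6% and 19.2%), beside 29.1% and 27.7% of all genes. Their median of 0.06 was below 0 on the deposited scale (6 rose and 11 fell) and on that set by library totals. The inhibitor Timp3 was at 48.2 ± 4.07 at 40 weeks and 16.2 ± 3.79 at 10 weeks (SD, n = 5 each; 1.54 ± 0.14 SE), the aggrecanase Adamts5 rose by 1.46, and Adamts10, a fibrillin-associated protease, fell by 1.74 on the log2 scale. Of 37 TGF-β and BMP genes 14 rose and 4 fell (37.8% and 10.8%), with a median of 0.30 (10 rose and 10 fell on the deposited scale). The receptors Tgfbr2 and Tgfbr3 rose by 2.21 and 1.86, while Acvrl1, a receptor of endothelium, and Id3, a target of BMP signals, fell by 1.04 and 1.06 on the log2 scale.

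Interferon response genes fell in 19 of 45 cases and rose in 4, with a median of −0.35 (26 and 1 on the deposited scale); 12 fell without MR 40 weeks replicate 2 or without MR 10 weeks replicate 4. Ifi27 was at 109, 62.2, 108, 72 and 88.3 at 40 weeks and at 237, 176, 216, 272 and 201 at 10 weeks (−1.33 ± 0.16 SE). Irf3, a transcription factor that starts the interferon response, fell by 1.53 and Isg15, a ubiquitin-like protein, by 1.12 on the log2 scale. Macrophage and monocyte markers moved with them: 13 of 24 fell and 1 rose, with a median of −0.58 (17 and 0 on the deposited scale), and their summed level was 278 to 409 at 40 weeks and 452 to 670 at 10 weeks. Ptprc, the pan-leukocyte CD45, was at 7.42, 7.56, 7.58, 7.46 and 7.87 at 40 weeks and at 10.9, 11, 13.3, 15 and 15.2 at 10 weeks (−0.70 ± 0.12 SE). The complement genes C1qa and C1qc and the mannose receptor Mrc1 fell by 1.15, 1.01 and 0.98 on the log2 scale. The part of fewer such cells in the interferon result was not tested.

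Vessel markers changed in both directions. Of 22 endothelial markers 10 fell and 2 rose, with a median of −0.41 (14 and 1 on the deposited scale; 1 rose without any one of 6 libraries), and their summed level was 1943 to 2629 at 40 weeks and 2750 to 4098 at 10 weeks. Gpihbp1, the capillary anchor of lipoprotein lipase, was at 15.6, 13.5, 13.6, 17.6 and 19 at 40 weeks and at 47.3, 50.6, 61.8, 64.1 and 51.5 at 10 weeks (−1.74 ± 0.12 SE). Egfl7 and Pecam1 fell by 1.61 and 0.61 on the log2 scale, but Cdh5, VE-cadherin, the junction protein of the same cells, was at 88.2 ± 14.3 at 40 weeks and 30.1 ± 9.22 at 10 weeks (SD, n = 5 each; 1.57 ± 0.20 SE). Of 18 smooth muscle and pericyte markers 9 fell and 4 rose (10 and 4 on the deposited scale; 5 fell without MR 40 weeks replicate 4), yet their summed level was higher, 1879 to 2306 at 40 weeks and 1530 to 1769 at 10 weeks: Higd1b fell by 1.74 on the log2 scale and Rgs5 and Notch3 rose by 1.5 and 1.29.

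Fibroblast markers fell in 5 of 17 cases and rose in 0 by limma (8 and 0 on the deposited scale), beside 27.7% and 29.1% of all genes; 2 to 3 fell without MR 40 weeks replicate 2, 4 or 5 or MR 10 weeks replicate 4 or 5. Heart muscle markers were split, 4 of 14 rising and 3 falling (28.6% and 21.4%), near the shares of all genes. On the deposited scale 4 rose and 6 fell. On the rescaled values 1 fell without any one of 6 libraries and 5 without MR 10 weeks replicate 5. Among the rises were Nkx2-5, a cardiac transcription factor (1.05 ± 0.12 SE), and Actn2 of the Z-disc (0.80 ± 0.14 SE). Adipocyte markers summed to 285 to 403 at 40 weeks and 640 to 844 at 10 weeks, with 6 of 9 falling and 3 rising on both scales. Fabp4, also a gene of capillary endothelium, held much of this sum, averaging 177 at 40 weeks and 489 at 10 weeks. Cfd (−1.32) and Lipe (−0.99) were also lower, and the largest of the 3 rises was 1.34. The defining markers Adipoq, Lep and Plin1 are not in the tables. Haemoglobin genes, which mark blood left in the tissue, ranged widely: Hbb-b1 was at 91, 95, 267, 36.5 and 30.6 at 40 weeks and at 578, 105, 298, 162 and 342 at 10 weeks (−1.70 ± 0.53 SE; limma, adjusted p = 0.0131), and the globin genes are near-identical copies. The calls of Hba1 and Hbb were lost in some settings. Of 7 erythroid genes 3 fell and 0 rose by limma (5 and 0 on the deposited scale), 1 without MR 10 weeks replicate 1 and 5 without MR 40 weeks replicate 3 or MR 10 weeks replicate 4, and their summed level was 669 to 7087 at 40 weeks and 2001 to 14030 at 10 weeks.

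The remaining cell type markers were few. Of 8 skeletal muscle markers 2 rose and 2 fell (1 and 2 on the deposited scale), near the 29.1% and 27.7% of all genes. Myh1, Myh2 and Myh4 are not in the tables. Of 7 lymphocyte markers Cd4 rose (0.78) and Nkg7 was at −0.52, not called without MR 40 weeks replicate 1 or 4 or MR 10 weeks replicate 2 or 3. Lcn2 and S100a8 fell among 3 neutrophil genes (by 0.93 and 0.92 on the log2 scale), and of 5 mast cell genes Kit rose (0.85) and Gata2 fell by 0.66. Of 10 Schwann cell and neuron genes Ncam1 rose (1.94) and Prph fell by 0.88 on the log2 scale. Of 3 epicardial genes Tbx18 fell by 0.72 on the log2 scale, and Wt1, at −0.46, lost its call in 10 other settings. Prox1 (2.02) and Reln (1.19) rose among 6 lymphatic genes. On the deposited scale the rises and falls were 1 and 3 for lymphocyte, 0 and 3 for neutrophil, 1 and 1 for mast cell, 1 and 2 for Schwann cell and neuron, 0 and 2 for epicardial and 2 and 1 for lymphatic genes.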

How the data were processed

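RNA-seq of rat myocardium was analysed from the gene tables of 4 time points, joined on gene symbol. The deposited values are signal: read counts per gene divided by 1 factor per library, as the values themselves show, since 97.3% to 97.7% of them are whole reads within 0.1 of a read once that factor is taken out. Per the submitters' processing notes the software was Partek and the genome build rn6; for aligner, counting rule and scaling method: not given in the sources used here. Coordinates are those of the tables, per the file headers; the base of the start is not stated.

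Each gene's values were set against their geometric mean over the MR 40 weeks, MR 10 weeks and Sham libraries, and every library was divided by its median ratio. The tables were scaled separately before deposit, and each Sham library, listed in both tables, was at 0.966 to 1.01 times its 10-week value in the 40-week table (median over genes). Genes with a mean of at least 1 over the 10 libraries were tested in limma (3.58.1, R 4.3.3) on log2(value + 1), two-sided, with a mean trend and Benjamini-Hochberg adjustment. Fold changes are on that scale and understate changes of low genes. "Rose" and "fell" mean adjusted p under 0.05. Recovered reads were tested with edgeR (4.0.16) and DESeq2 (1.42.0) as alternatives. The script was also run on simulated data in which far fewer genes changed than here, so that run does not test the scaling. Intervals were not given, and depth bears on low genes most.

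Named genes are the 12 largest rises and falls with groups that do not overlap and a mean at or above the median, a panel of 18, and up to 4 members with the smallest p per list. Another 44 of the 271 were chosen after their values were seen; some named genes, 1 of them among the libraries apart, are not reported here. The comparison and the lists were chosen with earlier results of these data known.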

Additional observations from a re-analysis of the deposited data

Results flagged for a closer look

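Of 542 groups of 5 libraries, each a named gene in MR at 40 weeks or MR at 10 weeks, 32 held a library apart from the others: its gap to the nearest value, as a share of the group's range, was above 0.71. Chance gives about 1 in 20 such groups. MR 40 weeks replicate 3 was the library apart in 7 of them (3 high, 4 low) and MR 10 weeks replicate 4 in 7 (3 high, 4 low).

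At 40 weeks the gap was 0.918 for Ccnd2, 0.711 for Alpk3, 0.754 for Smarcc1 and 0.802 for Acaca, with replicate 3 low. With replicate 3 high it was 0.776 for Pdk4, 0.827 for S100a9 and 0.771 for Rpl28. Replicate 1 was low for Myh6 (0.754), Glul (0.718) and Nr1d2 (0.717) and high for Col1a1 (0.735). Replicate 2 was low for Tpsb2 (0.869), replicate 4 high for Sdha (0.776) and replicate 5 low for Tnnt3 (0.814).

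At 10 weeks replicate 4 was low for Atp2a2 (0.875), Etfdh (0.733), Pink1 (0.797) and Pygm (0.786), and high for Alpk3 (0.759), Fabp4 (0.823) and C1qa (0.829). Replicate 5 was low for Ndufb3 (0.882), Atpif1 (0.917) and Csrp3 (0.720), and high for Adra1a (0.769). Replicate 1 was low for Igfbp7 (0.714) and Prox1 (0.770) and high for Rbm5 (0.739), replicate 2 high for Ugp2 (0.770), and replicate 3 high for Hspb7 (0.715) and low for Mef2a (0.728). What set these libraries apart was not tested.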

How the results depend on the processing

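Among genes with a mean of at least 10, 3437 passed (1769 rose, 1668 fell, 757 by at least 2-fold). The deposited scale gave 1842 rises and 4227 falls. The rescaling factors were 0.829 to 0.942 in MR at 40 weeks and 1 to 1.12 in MR at 10 weeks. What sets the scales apart was not tested, and rescaling assumes that the median gene did not change. A pseudocount of 10 left 346 changes of at least 2-fold. Leaving out 1 library gave 5148 to 5769 passes, 2653 to 2942 rises, 2495 to 2827 falls and 1185 to 1533 changes of at least 2-fold. The sign of Acta1 (−0.0228) and Pln (−0.0431) turned on the deposited scale, where the median of all genes was −0.25, against −0.01 after rescaling. Over libraries left out, Nppb ran from −0.295 to 0.00813, Acta1 from −0.00206 to 0.445 and Postn from −0.602 to 0.166. The 24 leading genes kept their call in 552 of 552 alternatives. Their choice as the largest changes without overlap in these same libraries favours that count. Of 245 named genes that passed, 15 lost the call in at least 1 alternative and 0 turned sign. No paired analysis was possible because the labels number no replicates within a group: the numbers 1 to 5 follow the order of the libraries in the series and pair none of them.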
